A study of Homo sapiens with 32 samples.

Results

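The genes described here are the zinc finger genes whose symbols run from ZNF500 to ZNF799. They were taken by name, as every row of the count tables named ZNF followed by 3 digits of which the first is 5, 6 or 7, a rule that uses symbols alone and no measured value. The rule found 208 of the 62703 rows, which carry 207 symbols because ZNF781 stands in 2 rows. All libraries come from HEK293T, a human embryonic kidney cell line. Each knockout was made with CRISPR/Cas9 against an IGF2BP gene, which was IGF2BP1, IGF2BP2 or IGF2BP3. The IGF2BP proteins are RNA-binding proteins known for keeping bound mRNAs stable in the cytoplasm. Poly(A) RNA of whole cells (called total here), of nuclei and of cytoplasm was sequenced separately in 32 libraries.

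The control cells had received a guide RNA that targets no mammalian gene, and the labels name no further treatment. Guides and GFP were brought in by transient transfection of plasmids that do not integrate. Each knockout was represented by 1 clone grown from a sorted GFP-positive cell, so the libraries of a knockout repeat that clone, and clone and knockout cannot be told apart. Nothing in the labels says that libraries came from separate cultures, so the p-values below measure the spread between these libraries only. The control had 4 libraries per RNA kind, in batches 1 to 4. The IGF2BP1 knockout had 2 libraries per RNA kind, in batches 1 and 2. The IGF2BP2 and the IGF2BP3 knockouts had 2 each in batches 3 and 4, where they share the same control libraries, and the IGF2BP3 knockout had 2 more cytoplasmic libraries in batch 5, which holds no control.

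Most genes of this family encode proteins with a row of C2H2 zinc fingers, short zinc-binding loops that each read a few bases of DNA. Many carry a KRAB box near the amino terminus, which recruits the corepressor TRIM28 and, through it, enzymes that lay down repressive chromatin and DNA methylation. KRAB zinc finger proteins are best known for silencing transposable elements, and their genes lie in clusters that arose by repeated duplication, above all on chromosome 19.

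The members fit that picture by sequence and place. Of the 207 members placed on GRCh38 by the GENCODE 29 annotation, 108 lie on chromosome 19. A pattern for the KRAB box was found in the coding sequence of 133 members and not found in 74, and 89 of the 133 but 19 of the 74 lie on chromosome 19. The pattern misses diverged boxes, so no match does not mean that a protein lacks one. The members held a median of 10 C2H2 patterns, 11 with the KRAB pattern and 8 without, and the longest row had 34.

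Their promoters were rich in the dinucleotide CG, the site of DNA methylation. RefSeq promoter windows on GRCh38.p14 were matched by symbol for 172 of the 207 member symbols. In the 250 bases before the start, the members had a median of 17 CG and all 27305 windows of that length a median of 11. At least 10 CG were found in 83.7% of the member windows and in 51.9% of all windows. CG reads the same on both strands and overlaps no other motif searched. The windows of 4 members whose RNA changed most, or that neighbour each other and rose together, follow here, chosen after their values were seen. ZNF793 (chr19:37506689-37506938, plus strand), ZNF547 (chr19:57363301-57363550, plus strand), ZNF548 (chr19:57389604-57389853, plus strand) and ZNF630 (chrX:48071641-48071890, minus strand) held 10, 28, 16 and 14 CG, which are set in capitals, 5′ to 3′.
ZNF793: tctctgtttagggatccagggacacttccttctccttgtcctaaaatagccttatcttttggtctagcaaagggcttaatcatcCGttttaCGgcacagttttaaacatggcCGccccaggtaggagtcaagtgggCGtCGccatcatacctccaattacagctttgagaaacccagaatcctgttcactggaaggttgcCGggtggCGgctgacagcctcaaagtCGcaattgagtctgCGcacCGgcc
ZNF547: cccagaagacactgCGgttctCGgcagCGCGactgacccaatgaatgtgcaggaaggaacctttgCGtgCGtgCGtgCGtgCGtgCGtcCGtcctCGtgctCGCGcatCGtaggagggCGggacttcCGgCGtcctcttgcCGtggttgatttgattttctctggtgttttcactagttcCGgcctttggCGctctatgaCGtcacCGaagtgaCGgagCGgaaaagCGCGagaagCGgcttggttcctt
ZNF548: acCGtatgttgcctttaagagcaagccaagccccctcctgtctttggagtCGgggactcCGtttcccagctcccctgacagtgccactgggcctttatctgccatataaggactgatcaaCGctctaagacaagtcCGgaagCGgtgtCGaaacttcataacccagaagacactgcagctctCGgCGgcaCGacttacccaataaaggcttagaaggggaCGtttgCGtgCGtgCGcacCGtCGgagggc
ZNF630: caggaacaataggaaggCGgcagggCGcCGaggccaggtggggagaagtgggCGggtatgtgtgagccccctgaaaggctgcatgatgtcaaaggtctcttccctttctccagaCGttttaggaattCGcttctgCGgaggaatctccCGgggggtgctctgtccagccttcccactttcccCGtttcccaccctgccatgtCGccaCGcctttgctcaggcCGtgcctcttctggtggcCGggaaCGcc

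The libraries held 13689067 to 26119480 counts, of which the members took 0.428% to 0.686%. A count of 3, taken as the floor, was worth 0.115 to 0.219 CPM, the field's unit for counts scaled to library size. CPM here use the total counts of a library alone. The log2 changes below add TMM scaling between libraries, so they can differ from ratios of the printed CPM. A pair of libraries was identical: total RNA of the IGF2BP1 knockout replicate 2 and its nuclear RNA replicate 1 held the same 21232940 counts and differed at 0 genes. Which of the labels is right was not settled, because single genes lay on either side. CBX5 stood at 252 CPM in it, at 431 in the other total library of that knockout and at 274 in the other nuclear one. The summed level of 3 mitochondrial mRNAs was 7163, 9839 and 8100 CPM in the same order, also nearer the nuclear library. That sum was 9522 to 11760 CPM in total and 6407 to 7560 CPM in nuclear control libraries. MALAT1, at 116, 97.0 and 78.5 CPM, lay nearer the total library. The IGF2BP1 counts of called members in total RNA, nuclear RNA and the ratio are therefore also given without it. The targeted genes were lower in their own knockouts, by log2 -4.23, -3.98 and -4.28 for IGF2BP1 in total, nuclear and cytoplasmic RNA, by -1.31, -1.39 and -1.35 for IGF2BP2, and by -1.19, -0.95 and -1.21 for IGF2BP3. Without the identical library the total and nuclear values of IGF2BP1 were -4.31 and -4.07. RNA of the other targeted genes remained. In total RNA IGF2BP2 had 34.3 and 34.8 CPM in its knockout and 77.5 and 73.6 in the control of batches 3 and 4. IGF2BP3 had 44.7 and 43.4 CPM in its own and 86.9 and 86.4 in that control. Protein was not measured in these data, so loss of a gene, or without it, means the knockout as labelled. The other IGF2BP genes moved as well. With the targeted gene counted, all 3 were called lower without IGF2BP2 in total, nuclear and cytoplasmic RNA (medians -0.48, -0.44 and -0.63). Without IGF2BP3, 2, 2 and 3 were lower in the same order, and 0 rose. Without IGF2BP1, in fits of all libraries, 2, 1 and 1 were lower, and 1 rose in cytoplasmic RNA. The part of these shifts in the members' changes was not tested. Of the placed members, 82 overlap another gene on their own strand and 111 one on the opposite strand. Whether counting used the strand, and how reads shared by similar zinc finger genes were treated, is not given in the sources used here, so such reads could be split between genes. All 7 markers of HEK293T cells that were examined averaged at least 1 CPM, but they moved with the knockouts: in cytoplasmic RNA 2 were called higher and 4 lower in the IGF2BP1 knockout, and 3 higher and 4 lower in each of the other two. KRT8, for example, had 17.3 to 20.4 CPM in cytoplasmic control RNA and 57.8 and 62.2 without IGF2BP2, and NEFM had 242 to 256 in control and 35.8 to 62.2 without IGF2BP3. Their part in the members' changes was not tested. Of 6 blood markers, examined because the series names leukaemia, RUNX3 did, and of 3 fibroblast markers, COL1A1 did. In bulk RNA, fewer cells with a transcript and less transcript per cell cannot be told apart.

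In control cells, 165 of the 208 members averaged at least 1 CPM in total RNA, 96 at least 10 and 9 at least 100, and the median member stood at 9.09 CPM. The medians were 10.2 CPM in nuclear and 7.93 CPM in cytoplasmic RNA. To compare levels between genes, CPM were divided by kilobases of exon. ZNF703, a transcriptional corepressor known as an amplified gene in breast cancer, had the highest level at 116.0 ± 24.8 CPM per kb (SD, n = 4) in total RNA. Its relative ZNF503 followed at 76.5 ± 9.26 and ZNF768 at 72.7 ± 4.50. These 2 neighbours in the order did not differ beyond their spread. ZNF664 stood at 46.9 ± 1.20, ZNF598, a ubiquitin ligase that marks collided ribosomes, at 35.0 ± 1.43, ZNF593, whose yeast relative takes part in export of the large ribosomal subunit, at 32.1 ± 1.64, and ZNF629 at 19.5 ± 2.36. None of these 7 members with the highest levels per kb matched the KRAB pattern. ZNF664 and ZNF598 were added to the 5 named by FPKM after the levels per kb were seen.

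The first comparison asked in which fraction of control cells members' RNA was enriched. Each fraction is scaled to its own counts, so the calls are relative to other genes. A member called nuclear need not have most of its RNA in the nucleus. Of 166 members with enough counts, 65 were called nuclear and 36 cytoplasmic (edgeR quasi-likelihood test, Benjamini-Hochberg adjusted p under 0.05, the threshold for every call below). Of all 16246 genes tested, 65.9% were called, 32.6% as nuclear and 33.3% as cytoplasmic. The members' median log2 ratio of nuclear over cytoplasmic RNA was 0.10 and that of all genes -0.02. In the same fit the nuclear RNAs MALAT1, NEAT1 and KCNQ1OT1 had a median of 2.15. The cytoplasmic mRNAs GAPDH, ACTB, RPLP0 and EEF1A1 had a median of only -0.58, and 3 mitochondrial mRNAs of -1.95. How pure the fractions were was not tested. Members with the KRAB pattern were called nuclear in 46 and cytoplasmic in 10 of 99 cases, with a median of 0.23. Members without it were called nuclear in 19 and cytoplasmic in 26 of 67, with a median of -0.08. Of 48 members with 13 or more C2H2 patterns, 27 were called nuclear and 7 cytoplasmic. The difference between these sub-groups was not tested.

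**Figure D1:**
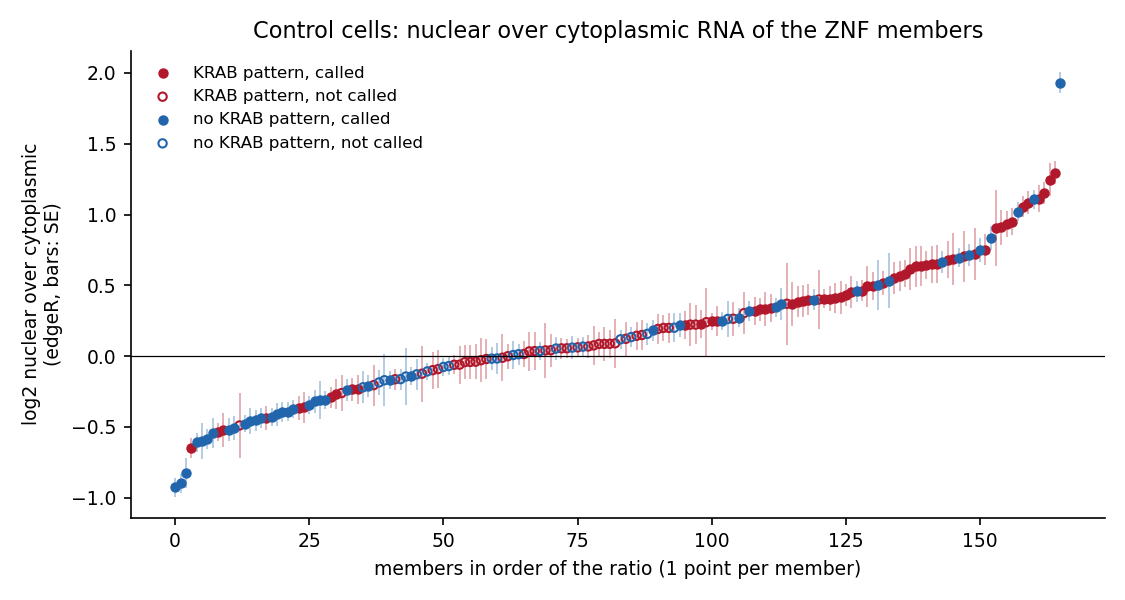
Log2 ratio of nuclear over cytoplasmic RNA in control cells (vertical axis, edgeR estimate with its SE) for the 166 tested members in order of the ratio (horizontal axis), coloured by the KRAB pattern and filled where called. ZNF692 stands apart at the nuclear end at 1.93, and ZNF664, ZNF703 and ZNF628, which do not match the pattern, lie at the cytoplasmic end.

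ZNF692, which is known to bind a regulatory element of gluconeogenic genes, was the most nuclear member (ENSG00000171163, chr1:248850006-248859144, minus strand). Its nuclear levels in the 4 control libraries were 55.9, 68.9, 79.0 and 62.2 CPM, and its cytoplasmic levels were 15.01, 17.1, 15.1 and 15.5 CPM. The fractions did not overlap, and the log2 ratio was 1.93 ± 0.08 (SE; adjusted p = 3.4e-16). ZNF587, ZNF605, ZNF789 and ZNF514, all with the KRAB pattern, followed with ratios of 1.30, 1.25, 1.15 and 1.11. At the other end, ZNF664 (ENSG00000179195, chr12:123971845-124015439, plus strand) had 202, 205, 185 and 198 CPM in nuclear and 373, 362, 326 and 308 CPM in cytoplasmic RNA, a log2 ratio of -0.93 ± 0.06 (SE; adjusted p = 1.4e-11). All 4 nuclear libraries lay below all 4 cytoplasmic ones. ZNF703 had a ratio of -0.90, ZNF628 of -0.83, ZNF777 of -0.65 and ZNF580 of -0.61, and among these ZNF777 matched the KRAB pattern. Each of these 10 members lay on the same side in every batch. Of the other abundant members, ZNF503, ZNF768 and ZNF593 were called cytoplasmic at -0.39, -0.37 and -0.52. ZNF629 was at -0.11 (adjusted p = 0.12), and was called without nuclear control replicate 1 (-0.15) or cytoplasmic control replicate 1 (-0.16).

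The next comparisons asked which members changed in the knockouts. In each knockout and RNA kind 171 members were tested, and 37 did not pass the filter on low counts in any of them. In cytoplasmic RNA of the IGF2BP1 knockout 75 members rose and 26 fell, where 44.4% of all genes were called, 22.5% higher and 21.9% lower. The members' median log2 change was 0.21 and that of all genes 0.01. In total RNA 42 rose and 16 fell (all genes 24.2% called, 10.7% and 13.5% by direction; member median 0.17), and in nuclear RNA 27 rose and 12 fell (25.7%, 12.7% and 13.0%; member median 0.09). In nuclear RNA the members called higher were 15.8% of those tested, near the share of all genes. Without the identical library, 35 of 174 rose and 12 fell in total RNA, where 9.05% of all genes were called higher and 11.7% lower. In nuclear RNA 21 of 173 rose and 13 fell without it, and the shares of all genes were 11.7% and 11.6%, with a member median of 0.05. In both fits the remaining knockout library was assumed to vary like the other groups. With the KRAB pattern, 48 of 103 members rose and 5 fell in cytoplasmic RNA, and without it 27 of 68 rose and 21 fell. Counts of calls moved by over 1.5 times in some fits: DESeq2 called 37 members in total and 19 in nuclear RNA, a fit of batches 1 and 2 alone called 26 and 25, and without cytoplasmic control replicate 2 the cytoplasmic fit called 66. Without the batch term it called 60.

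In the IGF2BP2 knockout the shift upward was larger. In total RNA 85 of 171 members rose and 13 fell, where 47.0% of all genes were called, 23.3% higher and 23.7% lower, and the members' median change was 0.34. In nuclear RNA 82 rose and 18 fell (all genes 49.7%, 24.8% and 24.9%; member median 0.27), and in cytoplasmic RNA 95 rose and 22 fell (64.2%, 30.9% and 33.2%; member median 0.31). The medians of all genes lay between 0.01 and 0.02. Upper quartile scaling moved the median of all genes upward by 0.10 in total and 0.15 in cytoplasmic RNA, and the members stood 0.32, 0.27 and 0.30 above all genes in total, nuclear and cytoplasmic RNA. With the KRAB pattern 61 of 103 members rose and 3 fell in total RNA, with a median of 0.47. Without it 24 of 68 rose and 10 fell, with a median of 0.18. In same-batch pairs of libraries the members' median in total RNA was 0.33 in batch 3 and 0.33 in batch 4. The total count of 98 called members fell to 55 and 58 without either knockout library and to 63 and 60 without control replicates 3 and 4. The nuclear count of 100 was 63 without knockout replicate 1, 51 and 66 without control replicates 3 and 4, and 66 with DESeq2.

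In the IGF2BP3 knockout the members did not share the upward shift. In nuclear RNA 14 rose and 63 fell, where 50.4% of all genes were called, 25.1% higher and 25.3% lower, with a member median of -0.15. Upper quartile scaling, which raised the median of all genes by 0.09, gave 26 and 51. In total RNA 29 rose and 42 fell (all genes 46.9%, 23.5% and 23.4%; member median -0.04) and in cytoplasmic RNA 41 rose and 61 fell (64.7%, 31.5% and 33.2%; member median -0.04), but upper quartile scaling turned both splits, to 45 and 29 in total and 65 and 41 in cytoplasmic RNA. It raised the medians of all genes there by 0.13 and 0.17. The members stood below all genes by a median of -0.06 in total, -0.16 in nuclear and -0.06 in cytoplasmic RNA. In nuclear RNA 38 of the 84 tested members on chromosome 19 fell and 5 rose, and elsewhere 25 of 87 fell and 9 rose. The total count of 71 was 41 and 36 without knockout replicates 1 and 2, and 36 and 38 without control replicates 3 and 4. The nuclear count of 77 was 51 without knockout replicate 1 and 48 without control replicate 3.

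**Figure D2:**
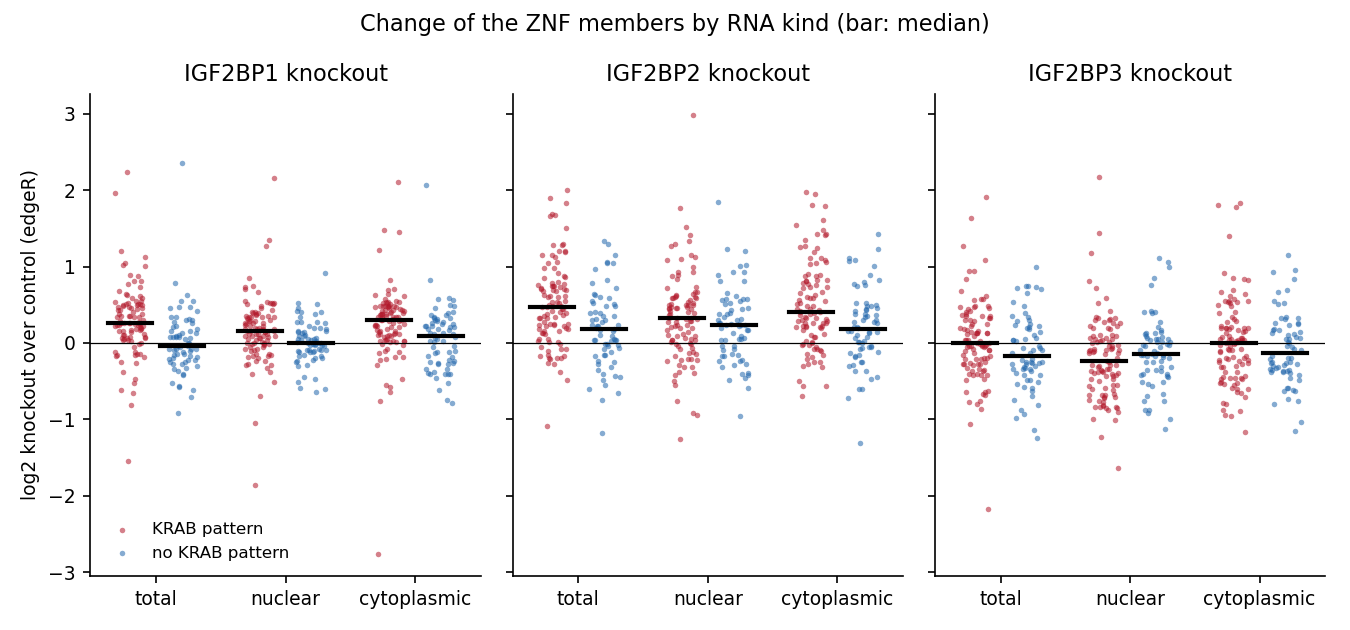
Log2 change of knockout over control (vertical axis, edgeR) of the 171 tested members in total, nuclear and cytoplasmic RNA (horizontal axis), 1 panel per knockout, with 1 point per member, coloured by the KRAB pattern, and bars at the medians. In the IGF2BP2 panel the medians of both colours lie above 0 in every RNA kind, and in the IGF2BP3 panel they lie between -0.24 and 0.00.

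Some of the 171 members moved alike in all of total, nuclear and cytoplasmic RNA. On loss of IGF2BP1, 17 rose and 7 fell in all 3, where 4.22% of all genes rose and 6.6% fell in this way. Without the identical library, which counts in both total and nuclear RNA, 13 members rose and 4 fell. On loss of IGF2BP2, 57 rose and 3 fell (all genes 15.8% and 16.2%), and on loss of IGF2BP3, 10 rose and 33 fell (17.1% and 18.0%). Every one of the members called in the fits of all libraries also moved that way in each same-batch pair of knockout and control libraries. Those pairs are libraries of the same fits, so they are no separate check.

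Among members called in the 3 RNA kinds and averaging at least 1 CPM, ZNF793 had the largest cytoplasmic fall in the IGF2BP1 and IGF2BP3 knockouts and the largest cytoplasmic rise in the IGF2BP2 knockout, where ZNF547 came next with nearly the same value. It is a KRAB gene of the dense row on 19q (ENSG00000188227, chr19:37506939-37548762, plus strand). In cytoplasmic RNA the control libraries had 1.25, 1.38, 1.32 and 1.21 CPM, the IGF2BP1 knockout 0.192 and 0.207, the IGF2BP2 knockout 5.31 and 4.97, and the IGF2BP3 knockout 0.646, 0.689, 0.256 and 0.307. No group overlapped the control. The log2 changes were -2.76 ± 0.44 (SE; adjusted p = 3.0e-06), 1.80 ± 0.23 (2.4e-08) and -1.17 ± 0.33 (0.0026). Total RNA gave -1.55, 1.51 and -2.18 and nuclear RNA -1.86, 1.10 and -1.64, all called. Without the identical library the IGF2BP1 values were -1.59 and -2.18 in total and nuclear RNA, both called. In nuclear RNA the IGF2BP2 call was lost without knockout replicate 1 (0.91), without control replicate 4 (0.83) and with DESeq2 (1.11), and the IGF2BP3 call without knockout replicate 1 (-0.95). The values are low: its cytoplasmic IGF2BP1 knockout libraries held 4 and 4 counts. Genes on the opposite strand overlap ZNF793.

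ZNF630, a KRAB gene on the X chromosome (ENSG00000221994, chrX:47983356-48071658, minus strand), rose in the IGF2BP1 and IGF2BP3 knockouts. Its cytoplasmic levels were 0.914, 1.10, 0.778 and 1.15 CPM in control. Without IGF2BP1 they were 2.93 and 2.90, without IGF2BP2 1.55 and 1.43, and without IGF2BP3 3.75, 4.56, 3.24 and 2.99. All 3 knockouts lay above the control libraries. The changes were 1.45 ± 0.25 (SE; adjusted p = 1.2e-05) for IGF2BP1 and 1.83 ± 0.24 (6.2e-08) for IGF2BP3, and the value for IGF2BP2 was 0.41 (adjusted p = 0.24). In nuclear RNA of the IGF2BP1 knockout the change of 1.26 was no longer called without knockout replicate 1, the identical library (0.87), or without control replicate 1 (0.87).

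**Figure D3:**
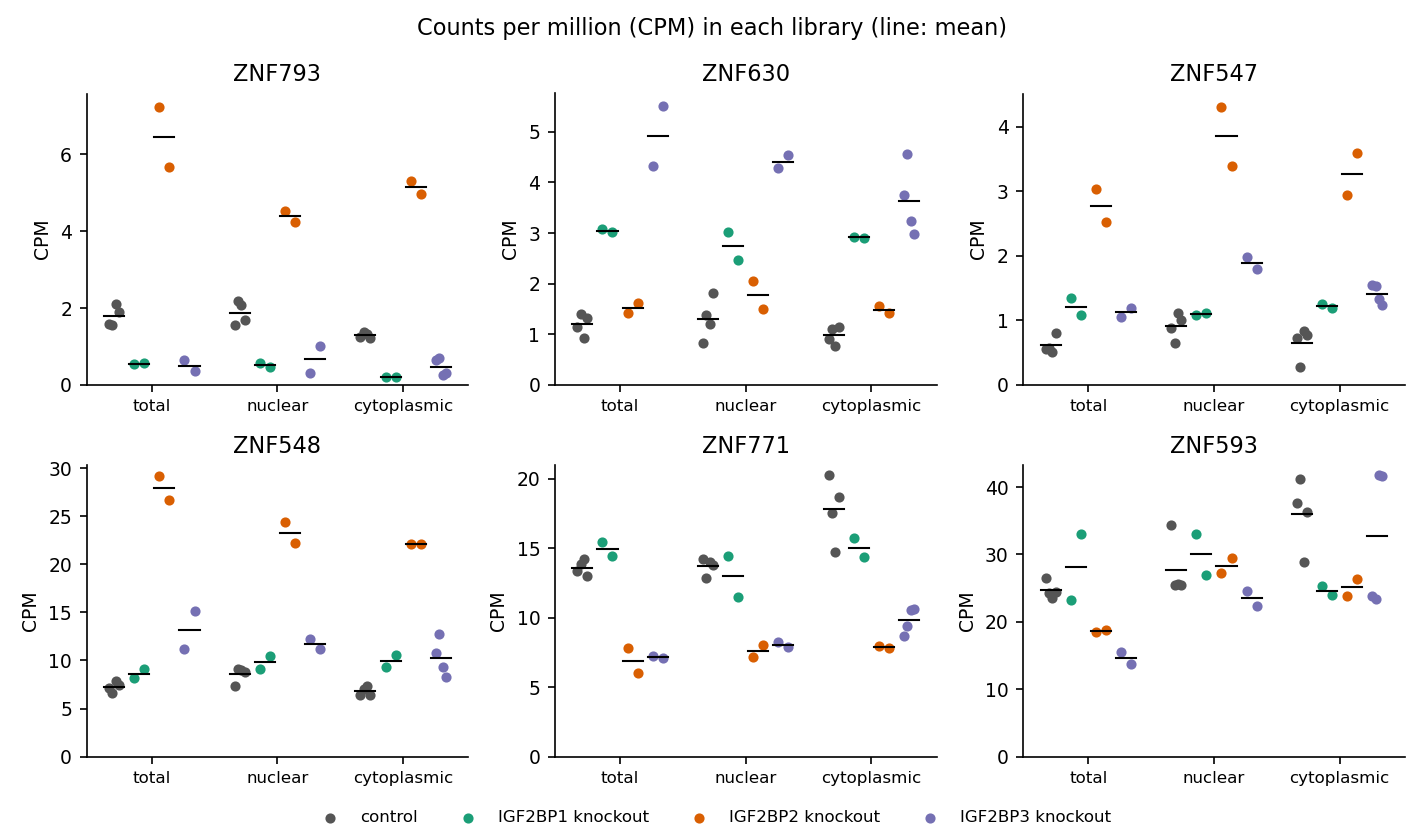
Levels in CPM (vertical axes, from 0) of 6 members in each library of total, nuclear and cytoplasmic RNA (horizontal axes), with points for libraries, coloured by group, and lines at the means. ZNF793, ZNF547 and ZNF548 are highest in the IGF2BP2 knockout, ZNF630 in the IGF2BP3 knockout, and ZNF771 is low in the IGF2BP2 and IGF2BP3 knockouts.

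ZNF547 and ZNF548 lie next to each other near the end of 19q, and both match the KRAB pattern. ZNF547 (chr19:57363477-57379565) had 0.721, 0.276, 0.837 and 0.768 CPM in cytoplasmic control RNA and 2.94 and 3.59 in the IGF2BP2 knockout, a change of 1.80 ± 0.29 (SE; adjusted p = 1.9e-06). ZNF548 (chr19:57389850-57402992) had 6.40, 7.03, 7.36 and 6.37 CPM in control and 22.2 and 22.1 in the IGF2BP2 knockout, a change of 1.47 ± 0.11 (7.5e-14). Neither gene's knockout libraries overlapped the control. Total and nuclear RNA gave 1.89 and 1.76 for ZNF547 and 1.68 and 1.29 for ZNF548. Both overlap other genes on their own strand, whose reads could be shared.

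Among the abundant members, ZNF768, which lacks the KRAB pattern (chr16:30524001-30526821), rose in the IGF2BP2 knockout. It went from 194 and 208 CPM in the cytoplasmic control of batches 3 and 4 to 419 and 412 CPM, and from 173 and 174 to 421 and 430 CPM in nuclear RNA. The log2 changes were 0.83 ± 0.04 in cytoplasmic, 1.20 ± 0.10 in nuclear and 0.82 ± 0.08 in total RNA (SE), all called. In the IGF2BP3 knockout it was 190 and 185 CPM in cytoplasmic RNA in the same batches. The called change of -0.37 there includes the TMM scaling, which these CPM do not carry. ZNF771, which lies nearby on chromosome 16 (chr16:30407297-30431108) and lacks the KRAB pattern, moved the other way in the IGF2BP2 knockout. Its cytoplasmic levels were 20.2, 17.6, 14.7 and 18.7 CPM in control, 7.92 and 7.78 without IGF2BP2, and 8.70, 9.38, 10.5 and 10.6 without IGF2BP3. The changes were -1.31 ± 0.10 (adjusted p = 4.1e-13) and -1.15 ± 0.10 (3.6e-12), and neither knockout overlapped the control.

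In the IGF2BP1 knockout ZNF525 and ZNF776, both with the KRAB pattern, also rose in the 3 RNA kinds, by 0.82 and 0.70 in cytoplasmic RNA. ZNF776 went from 11.1 and 12.04 CPM in the control of batches 1 and 2 to 21.6 and 18.1 CPM. ZNF525 is less sure: its total call was lost without knockout replicate 2 (0.57) or control replicate 2 (0.57), its nuclear call without knockout replicate 1 (0.65) or control replicate 1 (0.64), its cytoplasmic call without knockout replicate 1 (0.56) or control replicate 1 (0.56), and DESeq2 called none of the 3. ZNF503 and ZNF624 fell by -0.79 and -0.55 in cytoplasmic RNA. ZNF503 had 299 and 345 CPM in the control of batches 1 and 2 and 203 and 188 in the knockout. Its total change of -0.42 was not called without knockout replicate 2, the identical library (-0.23), or without control replicate 2 (-0.23), and that of ZNF624 (-0.62) was likewise not called without either (-0.48).

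In the IGF2BP2 knockout ZNF605 rose to 20.8 and 20.4 CPM in cytoplasmic RNA from 6.22 and 5.38 in the control of the same batches, a change of 1.61 ± 0.11 (SE; adjusted p = 5.3e-15). Its nuclear change of 0.36 was lost without knockout replicate 1 (0.295), without control replicate 4 (0.19) and with DESeq2 (0.37). ZNF506 and ZNF511 fell, by -0.69 and -0.30 in cytoplasmic RNA. ZNF506 was lost there without control replicate 3 (-0.16) or knockout replicate 1 (-0.62) or 2 (-0.76), and in total RNA without control replicate 3 (-0.73) or knockout replicate 1 (-0.84). ZNF511 was lost without knockout replicate 2 in cytoplasmic RNA (-0.16), without knockout replicate 1 (-0.26) or control replicate 4 (-0.37) in nuclear RNA, and without control replicate 4 in total RNA (-0.61).

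In the IGF2BP3 knockout ZNF513, which is linked to inherited retinal dystrophy, and ZNF774 rose in the 3 RNA kinds. ZNF513 had 13.9 and 16.2 CPM in cytoplasmic control RNA of batches 3 and 4 and 35.1 and 35.5 CPM in the knockout, a change of 0.96 ± 0.09 (SE; adjusted p = 1.2e-11). ZNF774 had 10.2 and 11.4 CPM against 25.1 and 24.4 CPM, a change of 0.93 ± 0.09 (7.9e-11). The batch 5 libraries of the knockout had 22.8 and 21.7 CPM of ZNF513 and 16.8 and 15.3 CPM of ZNF774, above every control library. The nuclear change of ZNF774 (0.40) was not called without knockout replicate 2 (0.21) or control replicate 4 (0.18), or with DESeq2 (0.41). ZNF502 fell by -1.03 in cytoplasmic RNA, from 1.85 and 2.14 CPM to 1.33 and 1.03 CPM. It was not called there without knockout replicate 2 (-0.75), in total RNA without knockout replicate 1 (-1.04), or in nuclear RNA (-0.77) without knockout replicate 1 (-0.72) or 2 (-0.81), without control replicate 3 (-0.78) or 4 (-0.75), or with DESeq2 (-0.77).

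Among members called higher in cytoplasmic RNA of all 3 knockouts, ZNF528, ZNF606 and ZNF548 had the largest smallest rise. ZNF528, a KRAB gene in the 19q row near ZNF525, rose by 2.10, 1.98 and 1.81 in the IGF2BP1, IGF2BP2 and IGF2BP3 knockouts. It was barely detected in control, at 0.240, 0.138, 0 and 0.439 CPM, and stood at 0.804 to 1.20 CPM in the 8 knockout libraries. All 8 lay above the control libraries, which held 5, 3, 0 and 8 counts. Single libraries decided the size of these changes. Without cytoplasmic control replicate 3, which held 0 counts, the IGF2BP2 and IGF2BP3 changes were 1.02 and 0.85 and not called, and without control replicate 4 they were 7.503 and 7.338 and called. The latter are fitted against a control of batches 3 and 4 with 0 counts and depend on the fit's handling of zeros. Without knockout replicate 1 the IGF2BP3 change was 1.24, and without knockout or control replicate 2 the IGF2BP1 change was 1.74, neither of them called. ZNF606 rose by 0.64, 0.90 and 0.83 and ZNF548 by 0.49, 1.47 and 0.52. In the IGF2BP3 knockout the batch 5 libraries differed from those of batches 3 and 4 by log2 -0.67 for ZNF606 and -0.25 for ZNF548. The IGF2BP1 call of ZNF548 was lost without knockout replicate 2 (0.45) or control replicate 2 (0.46).

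Called lower in cytoplasmic RNA of all 3 knockouts, with the largest smallest fall, were ZNF593, ZNF771 and ZNF598. None of the 3 matched the KRAB pattern. ZNF593 (chr1:26169871-26170873, plus strand) fell by -0.75, -0.60 and -0.74. It had 37.7, 41.1, 28.9 and 36.3 CPM in control, 25.4 and 23.9 in the IGF2BP1, 23.9 and 26.4 in the IGF2BP2 and 23.8 and 23.4 CPM in the IGF2BP3 knockout of batches 3 and 4. The batch 5 libraries of the IGF2BP3 knockout, however, had 41.8 and 41.7 CPM and lay above the control, and the IGF2BP3 change was not called without the batch term (-0.30), nor was the IGF2BP1 change (-0.62). ZNF598 fell by -0.41, -0.37 and -0.81, from 124 and 143 CPM in the control of batches 3 and 4 to 88.6 and 95.6 CPM in the IGF2BP3 knockout. The batch 5 libraries of that knockout had 116 and 117 CPM.

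On chromosome 19, members were also counted by neighbourhood in the IGF2BP2 knockout, where 23.3%, 24.8% and 30.9% of all genes were called higher in total, nuclear and cytoplasmic RNA. Members separated by gaps of at most 1 Mb were put in 1 group, which gave 15 groups numbered along the chromosome, 5 of them with at least 5 tested members. Group 9 (chr19:36182060-37817300, ZNF565 to ZNF573, 13 of its 15 members with the KRAB pattern) rose in total RNA at all 14 members tested, with a median of 1.02. In nuclear RNA 12 rose and in cytoplasmic RNA 13, with medians of 0.73 and 0.87, and 0 fell. In the IGF2BP1 knockout 2 of the 14 rose and 1 fell in cytoplasmic RNA, with a median of 0.07. Of all genes, 22.5% rose and 21.9% fell there. In the IGF2BP3 knockout 2 rose and 5 fell, with a median of -0.06, where 31.5% of all genes rose and 33.2% fell. Group 15 (chr19:55476332-58418327, ZNF628 to ZNF584) gave 18 members that rose and 2 that fell of 25 in total RNA, 17 and 0 in nuclear and 19 and 4 in cytoplasmic RNA of the IGF2BP2 knockout. Its first members, ZNF628 to ZNF787, had cytoplasmic changes of -0.47 to 0.42, while ZNF582, ZNF583, ZNF543, ZNF547 and ZNF772 farther along had 1.41, 1.06, 1.25, 1.80 and 1.35, as examples chosen after their values were seen. The other 3 groups were smaller. In group 4, 4 of 8 members rose and 0 fell in total RNA, 5 and 0 in nuclear and 4 and 0 in cytoplasmic RNA. In group 5, 5 of 9 rose and 1 fell in total RNA, 2 and 2 in nuclear and 4 and 1 in cytoplasmic RNA. In group 14, 5 of 13 rose and 1 fell in total RNA, 4 and 2 in nuclear and 4 and 3 in cytoplasmic RNA. The difference between groups was not tested.

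Genes that are not members gave a reading of the same places. In group 9, all 14 other tested genes named ZNF or ZFP were called higher in the IGF2BP2 knockout in each RNA kind, with medians of 1.00, 0.92 and 1.02 in total, nuclear and cytoplasmic RNA. In group 15, 21 of 29 rose and 1 fell in total RNA, with a median of 0.98. Protein-coding genes of other kinds from 1 Mb before to 1 Mb after group 9 were called higher in 12 and lower in 9 of 45 cases in total RNA, with a median of -0.03, and those around group 15 in 11 and 9 of 40, with a median of 0.11. In nuclear RNA these counts were 15 and 10 of 46 (median 0.15) around group 9 and 14 and 8 of 40 (0.29) around group 15, and in cytoplasmic RNA 18 and 12 of 43 (0.10) and 16 and 10 of 38 (0.15). The counts around group 15 include the genes inside it. Inside group 15, 5 of 14 such genes rose and 2 fell in total RNA, with a median of 0.38. In nuclear RNA 7 of 14 rose and 1 fell (median 0.49), and in cytoplasmic RNA 8 of 13 rose and 3 fell (0.49). Inside group 9, 0 such genes were tested. Whether the clone differs from the control in copy number or chromatin at these places was not tested. In group 14 (chr19:51804816-53458261, ZNF577 to ZNF761) the IGF2BP3 knockout had 8 of 13 members lower and 1 higher in nuclear RNA, with a median of -0.58. In group 5 (chr19:19785839-23945159, ZNF506 to ZNF726) it had 6 of 9 lower and 1 higher, with a median of -0.84. Of all genes, 25.3% were called lower and 25.1% higher in nuclear RNA of that knockout.

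**Figure D4:**
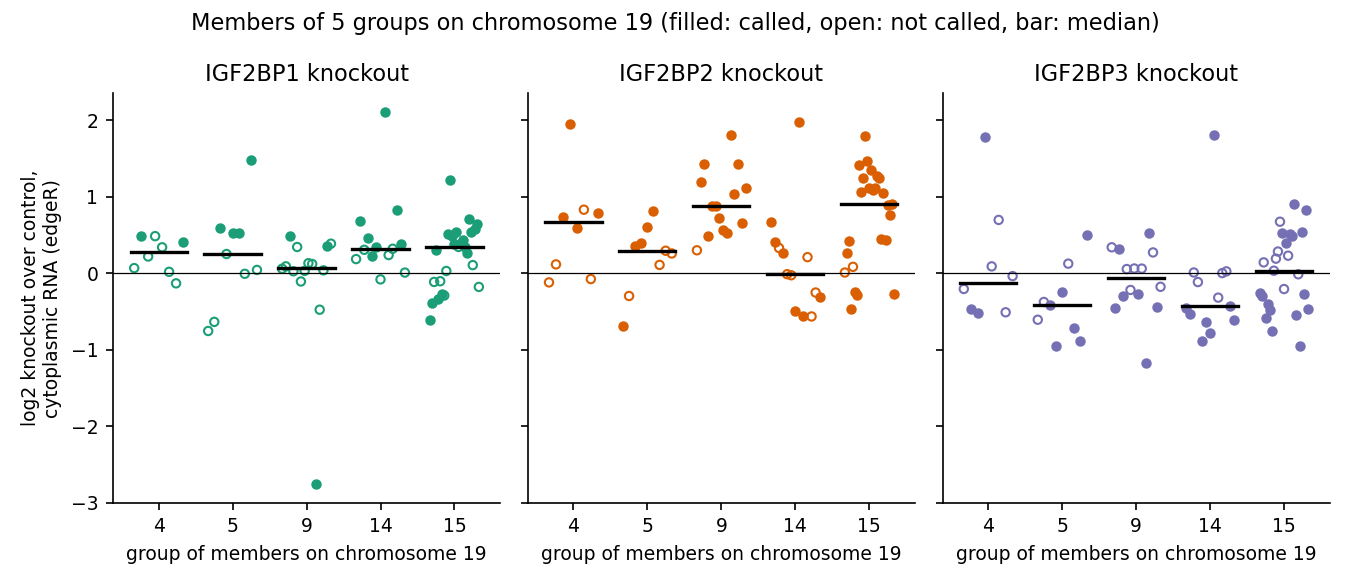
Log2 change in cytoplasmic RNA (vertical axis, edgeR) of the members of 5 groups on chromosome 19 (horizontal axis, numbered along the chromosome; within a group in order of position), 1 panel per knockout, filled where called, with bars at the medians. In the IGF2BP2 panel the medians of groups 9 and 15 are 0.87 and 0.90, and in the IGF2BP3 panel that of group 14 is -0.43.

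The RNA of a list of 30 corepressor and silencing genes, 29 of them tested, was followed beside that of the members. In cytoplasmic RNA 3 rose and 24 fell in the IGF2BP2 knockout and 4 rose and 23 fell in the IGF2BP3 knockout, with medians of -0.32 in both, against 30.9% and 33.2% of all genes higher and lower in the former and 31.5% and 33.2% in the latter. In the IGF2BP1 knockout 8 rose and 9 fell, against 22.5% and 21.9% of all genes, with a median of -0.02. In total RNA 2, 3 and 2 rose and 6, 17 and 14 fell on loss of IGF2BP1, IGF2BP2 and IGF2BP3, where 10.7%, 23.3% and 23.5% of all genes rose and 13.5%, 23.7% and 23.4% fell. In nuclear RNA 2, 3 and 4 rose and 5, 12 and 15 fell, where 12.7%, 24.8% and 25.1% of all genes rose and 13.0%, 24.9% and 25.3% fell. Without the identical library the IGF2BP1 counts were 0 and 3 in total and 2 and 3 in nuclear RNA. The fall was not particular to this list. GAPDH, ACTB, RPLP0 and EEF1A1 were all called lower in cytoplasmic RNA of the IGF2BP2 and IGF2BP3 knockouts, with medians of -0.61 and -0.52. In nuclear RNA 2 and 1 of them fell, with medians of -0.17 and -0.20. Upper quartile scaling raised the cytoplasmic medians of all genes by 0.15 and 0.17, and counts of the list under it are not given here. TRIM28, the corepressor that the KRAB box binds, had 805, 825, 661 and 740 CPM in cytoplasmic control RNA, 747 and 787 in the IGF2BP1, 526 and 515 in the IGF2BP2 and 419, 424, 501 and 515 in the IGF2BP3 knockout. The IGF2BP2 and IGF2BP3 libraries lay below every control library. The changes were -0.163, -0.649 and -0.9996 (SE 0.04, 0.04 and 0.04; adjusted p = 6.2e-04, 2.6e-16 and 3.3e-21). In nuclear RNA TRIM28 fell by -0.30 and -0.56 in the IGF2BP2 and IGF2BP3 knockouts, and in the IGF2BP1 knockout it was -0.19 (adjusted p = 0.21), or -0.04 (adjusted p = 0.84, edgeR) without the identical library. DNMT3B, a DNA methyltransferase that sets new methylation, fell by -0.81 in the IGF2BP1 and -1.11 in the IGF2BP2 knockout. CBX5, which encodes the heterochromatin protein HP1 alpha, rose by 0.39 and 0.81 in the same knockouts. CHD3, a remodeller of the NuRD complex, fell by -0.90 in the IGF2BP1 knockout, and SUV39H2, a histone methyltransferase, by -0.76 in the IGF2BP2 knockout. In the IGF2BP3 knockout DNMT1, which maintains DNA methylation, fell by -1.08 and the histone demethylase gene KDM1A by -0.81. The part of these genes in the members' changes was not tested.

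The last comparison asked whether a knockout changed the nuclear to cytoplasmic ratio, tested as an interaction. Of 172 members, 2 rose and 6 fell in the IGF2BP1 knockout (all genes 4.11% called, 2.36% and 1.76% by direction), 8 and 28 in the IGF2BP2 knockout (17.5%, 7.77% and 9.71%) and 4 and 28 in the IGF2BP3 knockout (10.9%, 4.07% and 6.80%). The member medians were -0.10, -0.09 and -0.20, and those of all genes 0.01, 0.03 and -0.03. Without the identical library the IGF2BP1 fit called 2 of 177 members higher and 6 lower, with a median of -0.12, where 0.771% of all genes were called higher and 1.81% lower.

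Markers of the fractions moved with these ratios. MALAT1, NEAT1 and KCNQ1OT1, which are known as nuclear RNAs, were tested from a list of 4. Of these, 2 fell in ratio on loss of IGF2BP1 (median -0.43) and all 3 on loss of IGF2BP2 (-1.76) and of IGF2BP3 (-1.24). Without the identical library their IGF2BP1 ratio changes were -1.19, -0.69 and -0.56. Their nuclear changes on loss of IGF2BP1 were then -0.58, -0.35 and -0.40, beside a nuclear median of -0.07 with that library. Cytoplasmic MALAT1 stood at 19.1 to 23.4 CPM in control, at 29.1 and 33.6 without IGF2BP1, at 80.7 and 87.5 without IGF2BP2 and at 62.9 to 113 without IGF2BP3. The summed cytoplasmic level of that list was 128 to 151 CPM in control, 171 and 173 without IGF2BP1, 636 and 663 without IGF2BP2 and 273 to 785 without IGF2BP3. Its nuclear sum was 262 to 372, 248 to 334, 511 to 559 and 974 to 1123 CPM in the same order. The 334 came from the identical library. Thus the sum was higher in the cytoplasmic libraries of all 3 knockouts than in any cytoplasmic control library. For IGF2BP2 and IGF2BP3 it was higher in the nuclear ones too. NEAT1 made up most of this sum, and nuclear KCNQ1OT1 did not rise with it. KCNQ1OT1 had 20.1 and 17.4 CPM in nuclear control RNA of batches 3 and 4, 6.14 and 6.69 without IGF2BP2, and 13.5 and 19.4 without IGF2BP3. Of 4 cytoplasmic mRNAs (GAPDH, ACTB, RPLP0 and EEF1A1), 1, 3 and 0 rose in ratio and 0 fell, with medians of 0.24, 0.40 and 0.18. Of 3 mitochondrial mRNAs, none was called without IGF2BP1 (median 0.31), 1 fell without IGF2BP2 (-0.37) and all 3 rose without IGF2BP3 (0.93). The part of these markers in the members' ratios and fraction levels was not tested.

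The members' counts also varied by sub-group and library. With the KRAB pattern 19 of 104 members fell and 1 rose in the IGF2BP3 knockout, and 18 fell and 1 rose in the IGF2BP2 knockout. The IGF2BP1 count of 8 became 0 without any library of batch 2 of the IGF2BP1 knockout or control, 4 without cytoplasmic IGF2BP3 knockout replicate 1, and 5 without any control library of batch 3 or 4. The IGF2BP2 count of 36 became 23 without either fraction of knockout replicate 2 and 19 without any control library of batch 3 or 4. The IGF2BP3 count of 32 became 6 and 21 without either fraction of knockout replicates 1 and 2, and 11 and 12 without control replicates 3 and 4. DESeq2 called 1, 16 and 9, and the IGF2BP3 count was 14 without the batch term.

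ZNF621 (chr3:40524878-40574685, plus strand) fell in ratio in all 3 knockouts. In control it had 121, 149, 159 and 145 CPM in nuclear and 62.6, 58.1, 58.2 and 62.0 CPM in cytoplasmic RNA. In the IGF2BP2 knockout it had 126 and 107 CPM in nuclear and 116 and 119 CPM in cytoplasmic RNA, so that the fractions overlapped. In the IGF2BP2 knockout 9 of the 171 members tested in both fractions were called in opposite directions with a called ratio, ZNF621 among them, where 2.27% of all genes were. The ratio of ZNF621 changed by -1.27 ± 0.12 (SE; adjusted p = 7.7e-18), with the nuclear level lower by -0.48 and the cytoplasmic level higher by 0.75. The ratio changes were -0.66 in the IGF2BP1 and -0.99 in the IGF2BP3 knockout. The former was not called without knockout or control libraries of batch 2 (-0.502 to -0.465). ZNF605 fell in ratio by -1.27 ± 0.17 in the IGF2BP2 knockout (adjusted p = 1.4e-09) and ZNF736 by -0.61 in the IGF2BP1 knockout, the latter again not called without a batch 2 library (-0.494 to -0.457). In the IGF2BP3 knockout ZNF789 fell by -1.14 ± 0.15 (adjusted p = 5.0e-09), from 31.5 and 27.4 CPM nuclear against 12.3 and 10.8 CPM cytoplasmic in the control of batches 3 and 4 to 26.5 and 27.6 against 24.9 and 24.5 CPM. The batch 5 cytoplasmic libraries of that knockout, which the ratio fit leaves out, differed from these by log2 -0.67 for ZNF789. ZNF595 fell by -1.03, and was not called without knockout replicate 1 (-0.88 and -0.86), without control replicate 4 (-0.83) or with DESeq2 (-1.04). The 5 most nuclear members of the control, ZNF692, ZNF587, ZNF605, ZNF789 and ZNF514, had ratio changes of -1.17, -0.92, -1.27, -1.02 and -1.10 in the IGF2BP2 knockout. They were chosen for a high ratio in the control libraries that also enter these changes, so their direction is partly set by that choice.

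**Figure D5:**
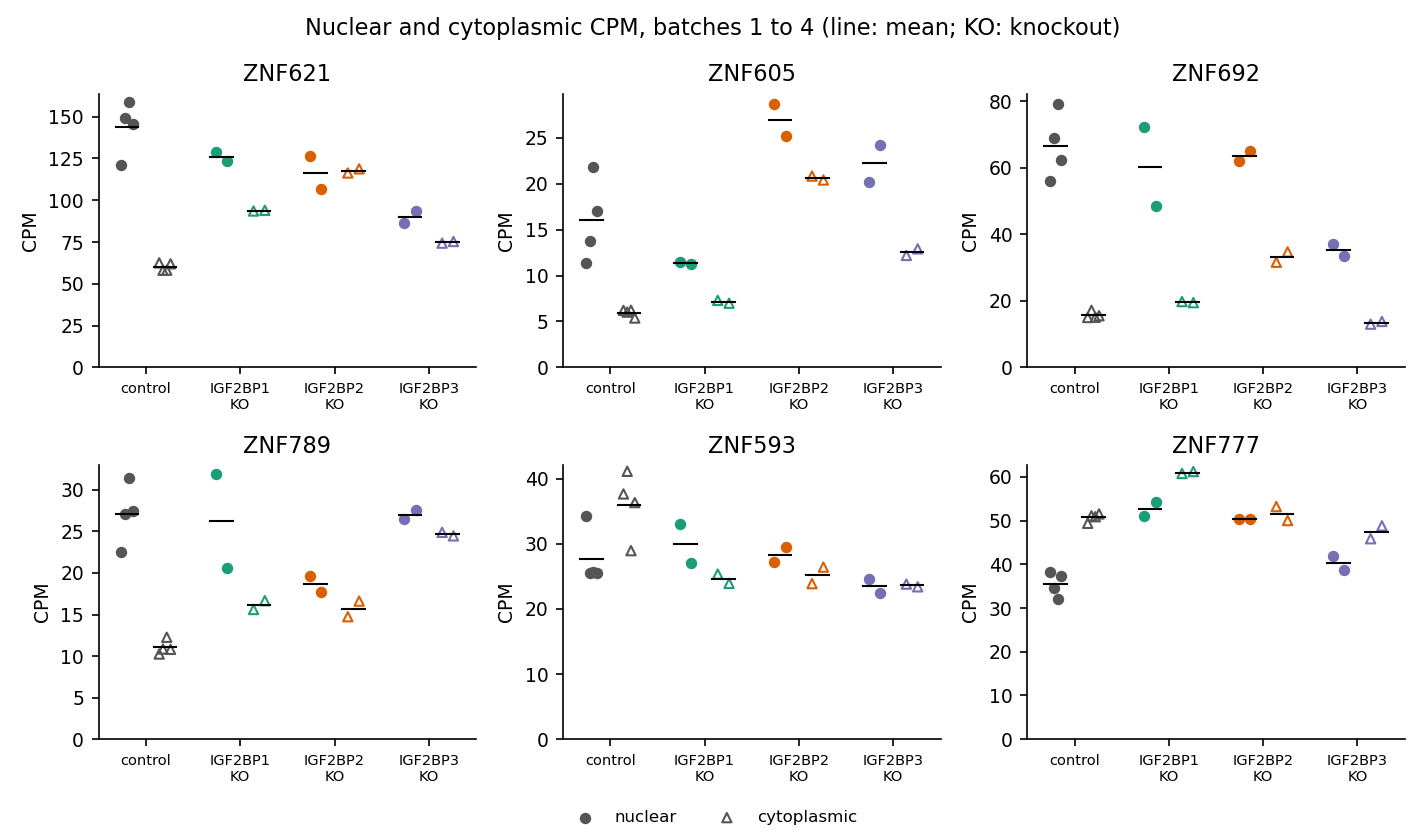
Nuclear (filled circles) and cytoplasmic (open triangles) levels in CPM (vertical axes, from 0) of 6 members in each library of batches 1 to 4 by group (horizontal axes), with lines at the means. For ZNF621, ZNF605 and ZNF692 the gap between the fractions in control is narrower in the IGF2BP2 knockout, and for ZNF593 and ZNF777 the mean cytoplasmic level lies above the nuclear one in control.

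The ratio of ZNF593 moved toward the nucleus in all 3 knockouts, by 0.76, 0.61 and 0.42. Its nuclear changes were 0.00, 0.06 and -0.24, none called, beside the called cytoplasmic falls. The ratio call was lost without a batch 2 library in the IGF2BP1 knockout (0.507 to 0.544), without knockout replicate 2 (0.50) or control replicate 4 (0.48) in the IGF2BP2 knockout, and without any knockout or control library of batches 3 and 4 in the IGF2BP3 knockout (0.294 to 0.542). It was also lost with DESeq2 in the IGF2BP2 (0.59) and IGF2BP3 (0.42) knockouts. ZNF777 rose in ratio by 0.62 ± 0.13 in the IGF2BP2 knockout (adjusted p = 8.3e-05), with nuclear levels of 50.5 and 50.3 CPM against 32.1 and 37.4 CPM in the control of batches 3 and 4, and was not called without control replicate 3 (0.48 and 0.47). ZNF622, whose yeast relative matures the large ribosomal subunit, rose by 0.50 in the IGF2BP3 knockout, a call lost in each fit that left out a knockout or control library of batches 3 and 4 (0.468 to 0.533) and with DESeq2 (0.51). ZNF579 rose by 0.57 in the IGF2BP1 knockout, and was not called in any fit without a knockout or control library of batches 1 and 2 (0.475 to 0.639).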

How the data were processed

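Poly(A) RNA of whole HEK293T cells, nuclei and cytoplasm was sequenced with a strand-marking kit. The authors deposited, per gene, raw counts and FPKM values. Per the submitters' processing notes, STAR, featureCounts, DESeq2 1.44.0 and GRCh38 were used; the annotation and the strand setting are not given in the sources used here. The deposited FPKM match scaling by the gene's span with introns, so levels between genes are CPM per kb of GENCODE 29 exon here, and FPKM served only to name the 5 highest members.

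Counts were tested with edgeR 4.0.16 (limma 3.58.1, R 4.3.3): TMM scaling, filterByExpr by genotype, terms for knockout and batch, quasi-likelihood, and Benjamini-Hochberg adjustment over all genes of a fit. All libraries of an RNA kind shared a fit. The ratio of fractions was an interaction over batches 1 to 4. The batch name in the labels pairs same-batch libraries. Same-batch pairs used a prior count of 0.5. The KRAB pattern (a consensus of the A box) and the C2H2 pattern were searched in translated GENCODE 29 coding sequences. Alternatives were RLE and upper quartile scaling, no filter, a mean of at least 1 CPM, DESeq2 1.42.0, no batch term, the knockout's own batches, and each library left out. Scripts were tested on simulated data.

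The members and gene lists were chosen with earlier results of these data known. Named genes were the 5 highest by control FPKM, the 5 most nuclear and 5 most cytoplasmic, the 3 largest in each direction per knockout among members called alike in total, nuclear and cytoplasmic RNA with all batch pairs moving that way, the 3 in each direction with the largest smallest cytoplasmic change over the knockouts, up to 2 per direction for the ratio, and up to 3 corepressors per knockout. Where these needed a level, it was a mean of at least 1 CPM. Depth was 13689067 to 26119480 counts per library, and a floor of 3 counts covers counting error only.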

Additional observations from a re-analysis of the deposited data

Results flagged for a closer look

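Among the named members, 140 groups of 4 libraries were examined. In 4 of them 1 library lay far from the others, a gap that chance gives in about 1 in 20 groups. ZNF593 had 34.3 CPM in nuclear control replicate 1 and 25.4 to 25.6 CPM in the other 3. ZNF664 had 463 CPM in cytoplasmic IGF2BP3 knockout replicate 3, a batch 5 library, and 431 to 433 CPM in the others. ZNF736 had 16 CPM in cytoplasmic control replicate 3 and 12.5 to 13.0 CPM in the others, and ZNF774 had 15.1 CPM in total control replicate 3 and 13.0 to 13.3 CPM in the others.

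In the IGF2BP2 knockout 9 of 171 members (5.26%) were called in opposite directions in the 2 fractions with a change of the ratio that passed the interaction test, where 2.27% of all genes were. Nuclear marker RNAs also fell in ratio there (median -1.76 over 3 of them), and their part was not tested. Of the 9, 5 are named members. ZNF503 rose by 0.43 in nuclear RNA and fell by -0.15 in cytoplasmic RNA, a ratio change of 0.54. ZNF622 gave 0.26, -0.25 and 0.46, and ZNF777 gave 0.44, -0.21 and 0.62 in the same order. ZNF621 fell by -0.48 in nuclear RNA and rose by 0.75 in cytoplasmic RNA, a ratio change of -1.27, and ZNF774 gave -0.46, 0.29 and -0.79.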

How the results depend on the processing

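Counts of called members moved by more than 1.5 times in these fits. DESeq2 called 37 in total and 19 in nuclear RNA of the IGF2BP1 knockout, 66 in nuclear RNA of the IGF2BP2 knockout, and 1, 16 and 9 for the ratio in the IGF2BP1, IGF2BP2 and IGF2BP3 knockouts. The batches of the IGF2BP1 knockout alone gave 26 in total and 25 in nuclear RNA, and a mean of at least 1 CPM gave 5 for its ratio. The cause was not tested. Upper quartile scaling kept these counts within that range but turned the split of the IGF2BP3 knockout in total and cytoplasmic RNA.

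Without the batch block that pairs libraries, the IGF2BP1 knockout gave 43, 35 and 60 called members in total, nuclear and cytoplasmic RNA and 10 for the ratio, against 58, 39, 101 and 8 with it. The IGF2BP2 knockout gave 105, 98, 96 and 24, and the IGF2BP3 knockout 79, 84, 79 and 14. The control fractions gave 84.

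Leaving out each library in turn gave 41 to 74, 28 to 37 and 66 to 107 called members in total, nuclear and cytoplasmic RNA of the IGF2BP1 knockout, 55 to 115, 51 to 112 and 99 to 119 in the IGF2BP2 knockout, and 36 to 98, 48 to 92 and 85 to 105 in the IGF2BP3 knockout. The ratio gave 0 to 11, 19 to 42 and 6 to 32, and the control fractions 86 to 110. Over the named members, 1654 alternative values kept their direction and their side of the threshold, 120 lost the call, 2 gained it and 0 changed direction. Most named members were chosen for called changes in the main fit, so their kept direction is partly set by that choice. Many of these fits also left out a library of a group outside the comparison. Low counts limit members near the floor such as ZNF528 and ZNF793, and 37 members were not tested in any knockout.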

Other observations

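The 2 cytoplasmic IGF2BP3 knockout libraries of batch 5 have no control of their own batch. Against the mean of the 4 controls, the members' median was -0.04 and -0.06 in these libraries, and -0.11 and -0.08 in the libraries of batches 3 and 4. The median member was higher by 0.03 in batch 5 than in batches 3 and 4, with 94 of 171 members above 0, where the median of all genes was -0.03. Because batch 5 holds no other group, its values and the batch cannot be told apart.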
